A study of Mus musculus with 8 samples.

Results

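The cytosolic ribosomal protein genes of the mouse encode the proteins of the 40S and 60S ribosomal subunits, and their PU.1 sites were examined in 7 ChIP-seq libraries. Members were all protein-coding genes whose symbol is Rpl or Rps followed by a number and an optional suffix, plus Rplp0, Rplp1, Rplp2 and Rpsa, with the Rps6k kinases left out. The rule gave 85 of 21887 protein-coding genes, 53 of the large subunit and 32 of the small subunit, spread over 19 chromosomes. The rule used symbols alone, and the gene set was proposed with earlier results of these data known.

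The libraries came from AML246, a mouse acute myeloid leukaemia line grown in medium with IL-3. Going by the titles, which read restoration or knockdown, doxycycline (Dox, 0.1 ug/mL) restores the myeloid transcription factor PU.1 in these cells. Restoration libraries were untreated cells (day 0) and cells given Dox for 4, 8 or 12 days, and Dox was removed on day 12 of a 24 day course. Knockdown (withdrawal) libraries carried the titles Day 12- 4, Day 12- 8 and Day 12- 12. Titles and treatment labels disagreed: the first of these was labelled as Cd11b-high cells sorted at 12 days of Dox, the second as 4 days off Dox and the last as 8 days off Dox. Titles are used here. All other libraries came from total viable cells. Each group held 1 library, and without replicates differences between libraries were not tested. The level of PU.1 was not measured in these files, and no marker of cell type could be read from binding sites.

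Every mammalian cell needs the same set of ribosomal proteins in nearly equal amounts, and their genes are among the most strongly transcribed by RNA polymerase II. Their promoters are short, usually lack a strong TATA box, start within a pyrimidine tract, and hold sites for general factors such as SP1, YY1 and the ETS factor GABP, which reads the same GGAA core as PU.1. In the bone marrow the dose of several of these proteins matters, since loss of 1 copy causes Diamond-Blackfan anaemia in humans.

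Sequences are shown first, because the ETS core is what these promoters share with a PU.1 site. The first 6 belong to genes with a called site in 6 or all 7 libraries, and the last 2 to genes with a site in 1 library or none. They are RefSeq sequences of build GRCm38.p6 (mm10), written from upstream to downstream on the gene's strand, with every GGAA or its complement TTCC in capitals. For Rpsa (chr9:120127656-120127765, plus strand), Rpl36a (chrX:134585544-134585653, plus strand), Rps6 (chr4:86857368-86857477, minus strand) and Rpl28 (chr7:4792855-4792964, plus strand) they are the 110 bases before the annotated transcription start. For Rps12 (chr10:23787290-23787319, minus strand) and Rpl35a (chr16:33056468-33056497, plus strand) 30 bases around the GGAA cores are given. The Rps12 stretch holds 3 of its 7 summits, those of days 4 and 12 and the library titled Day 12- 12, and the others lie between it and the start. The Rps24 stretch (chr14:24490568-24490677, plus strand) again ends at a start, and that of Rpl39l (chr16:10170118-10170196, plus strand) holds 79 bases. The printed Rps24 bases hold no core, but the 300-base window around each of its annotated starts does. Its day 12 summit, at 24490729, lay past the printed bases, 24 bp from its second annotated start at 24490753.
Rpsa: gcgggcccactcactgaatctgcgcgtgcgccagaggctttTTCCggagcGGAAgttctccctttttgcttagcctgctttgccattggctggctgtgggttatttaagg
Rps12: cGGAAgtGGAAactcctaaggcacggcacc
Rpl28: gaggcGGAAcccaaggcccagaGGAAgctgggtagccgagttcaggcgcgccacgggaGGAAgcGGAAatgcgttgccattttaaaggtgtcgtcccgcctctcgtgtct
Rpl35a: cggggcttgccTTCCtctTTCCgccatctt
Rpl36a: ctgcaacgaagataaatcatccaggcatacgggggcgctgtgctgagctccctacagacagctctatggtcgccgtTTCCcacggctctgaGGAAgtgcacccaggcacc
Rps6: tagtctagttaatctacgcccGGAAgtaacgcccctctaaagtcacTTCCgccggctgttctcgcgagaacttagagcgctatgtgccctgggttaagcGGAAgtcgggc
Rps24: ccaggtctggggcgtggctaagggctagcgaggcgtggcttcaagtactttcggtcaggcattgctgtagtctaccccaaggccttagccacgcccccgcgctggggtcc
Rpl39l: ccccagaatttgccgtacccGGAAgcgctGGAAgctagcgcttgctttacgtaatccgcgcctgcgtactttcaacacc

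Some of the called summits fell on or beside these cores in the first 4 sequences. At Rpsa, the laminin-binding protein of the small subunit, the day 12 summit lay on base 42 of the stretch, within the first capital run, and the day 4 summit on base 44. At Rps12 the day 4 summit lay on base 2 and the day 12 summit on base 7, between the 2 cores. The Rpl28 stretch holds 4 cores, and the summits of the libraries titled Day 12- 4 and Day 12- 8 lay inside the last of them, on bases 65 and 66. At Rpl35a the summits of day 0, day 8 and the library titled Day 12- 12 lay on bases 13, 12 and 12, inside the first core. That stretch continues into a YY1-type match. Other summits lay farther off. At Rpsa those of days 0 and 8 lay 34 and 11 bases past the start, and that of the library titled Day 12- 12 lay 23 bases from a core. At Rpl36a the summits of day 0, day 12 and the library titled Day 12- 12 lay 48, 23 and 4 bases from a core. At Rps6 the day 4 summit lay 2 bases from a core. Those of days 8 and 12 and the libraries titled Day 12- 4 and Day 12- 12 lay 13, 16, 49 and 4 bases past the start. The Rpl39l stretch holds 2 cores and a GABP-type CCGGAAG match with no summit called in any library.

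Each deposited list gave 1 summit position per called peak and a score, taken here to be −log10 of its q-value within its own library. Scores describe and rank sites within a list and do not measure a change between libraries. The lists of days 0, 4, 8 and 12 held 8043, 57424, 33962 and 86271 sites. Those of the withdrawal titles Day 12- 4, Day 12- 8 and Day 12- 12 held 9868, 21377 and 148415, and withdrawal values are given in this title order throughout. Sequencing depth was unknown, so a missing call does not show absence of binding. The share of all sites lying within 1 kb of a gene end ran from 10.3% in the library titled Day 12- 12 to 61.8% at day 0.

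Ribosomal protein genes had a called site within 1 kb of either gene end (a gene-end site) in most libraries, with day 0 as the low value. The counts over days 0, 4, 8 and 12 were 25, 62, 64 and 78 of 85, and the withdrawal counts were 51, 67 and 71. As shares the restoration values were 29.4% (95% exact interval 20.02 to 40.3), 72.9% (62.2 to 82.0), 75.3% (64.7 to 84.0) and 91.8% (83.8 to 96.6). The withdrawal shares were 60% (48.8 to 70.5), 78.8% (68.6 to 86.9) and 83.5% (73.9 to 90.7). The intervals treat the 85 genes as independent draws and cover counting error only, so they are no test of the gene set.

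Over all protein-coding genes the same window held a site in 23.5, 29.8, 32.7 and 56.2% of genes at days 0, 4, 8 and 12. The withdrawal backgrounds were 15.4, 43.5 and 51.4%. The share among ribosomal protein genes was thus 1.25 times the background at day 0, a difference that was not tested. It was 2.45, 2.30 and 1.63 times the background at days 4, 8 and 12, and 3.90, 1.81 and 1.63 times in the withdrawal libraries in title order. The day 0 list was the list richest in gene-end sites and the one in which ribosomal protein genes stood closest to other genes. The 2 shortest lists, of similar length, gave 60% in the library titled Day 12- 4 and 29.4% at day 0.

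**Figure D1:**
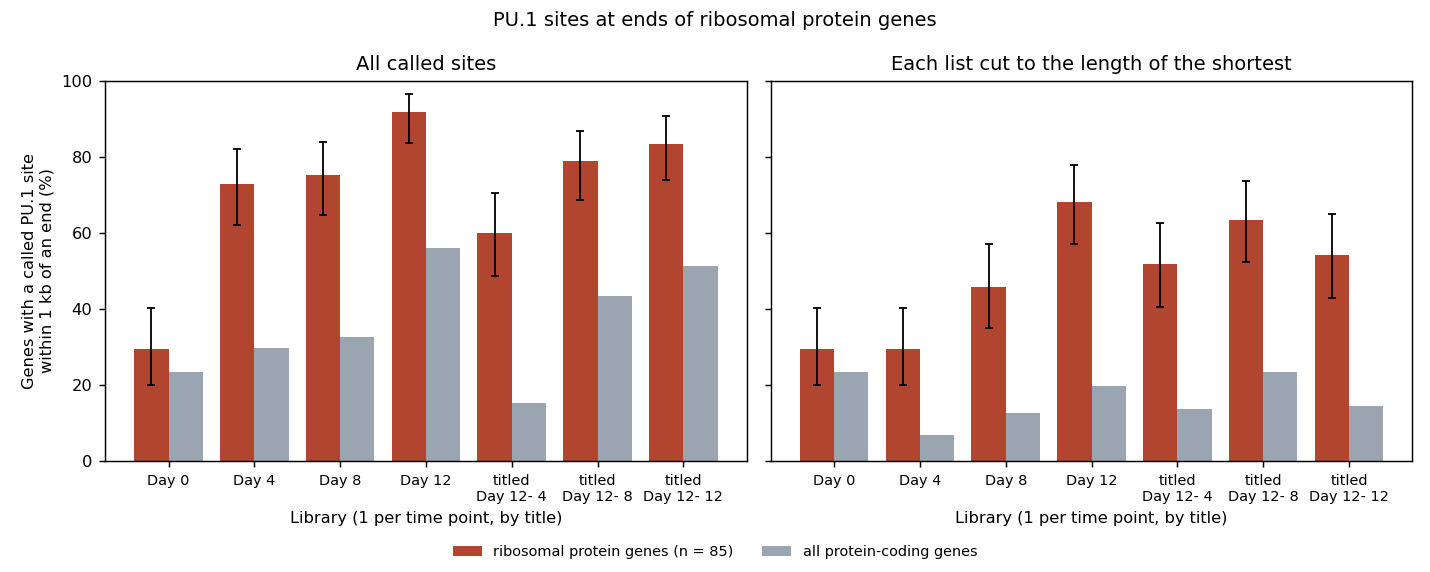
Percent of genes with a called PU.1 site within 1 kb of an end, for the 85 ribosomal protein genes (red, with exact 95% intervals for counting error) and all 21887 protein-coding genes (grey) in each library, for full lists (left) and for lists of 8043 sites (right). The red and grey bars are closest at day 0 (29.4 and 23.5%).

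The order changed in part at equal list length. With every list reduced to its 8043 highest-scoring sites, the members with a gene-end site numbered 25, 25, 39 and 58 at days 0, 4, 8 and 12. In the withdrawal libraries they numbered 44, 54 and 46 in title order. The backgrounds were then 23.5, 6.76, 12.7 and 19.8% at days 0, 4, 8 and 12, and 13.7, 23.5 and 14.4% in the withdrawal libraries. At equal length, the library titled Day 12- 8 and the day 0 list thus had the same background of 23.5%, with 54 members in the library titled Day 12- 8 and 25 at day 0. A score of at least 10 was reached at 17, 49, 58 and 76 members over days 0, 4, 8 and 12, with backgrounds of 12.1, 21.5, 26.0 and 43.9%. The withdrawal counts were 36, 49 and 57, with backgrounds of 9.8, 20.3 and 25.4%. A score of at least 20 was reached at 8, 44, 45 and 75 members over the restoration days, with backgrounds of 4.56, 15.0, 18.7 and 36.8%. In the withdrawal libraries it was reached at 25, 29 and 46 members, with backgrounds of 5.78, 9.6 and 13.9%.

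The same members recurred from list to list. A gene-end site was called in all 7 libraries at 16 of 85 members (18.8%), against 5.41% of all genes. Another 26 members (30.6%) had a site in every library except day 0, against 5.70% of all genes. At day 12 and not day 0 there were 54 members (63.5%, background 37.8%), and at both times 24 (28.2%, background 18.3%). All 3 withdrawal libraries held a site at 46 members (54.1%, background 12.9%). No member was called at days 4, 8 and 12 and in none of the withdrawal libraries, where the background was 0.489%. Rpl19, a large-subunit protein gene, was the only member with a gene-end site at day 0 or in a withdrawal library and in none of days 4, 8 and 12, against 12.5% of all genes. Its day 0 site, at a score of 15.9, lay 597 bp from the lower end of its gene record (chromosome 11, 98022003 to 98030493), whose annotated starts are at 98026710 and 98026924. Near those starts sites were called at day 0, at 12.3, at day 12, at 39.3, and in the library titled Day 12- 8, at 10.98, so the exception rests on the gene record.

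**Figure D2:**
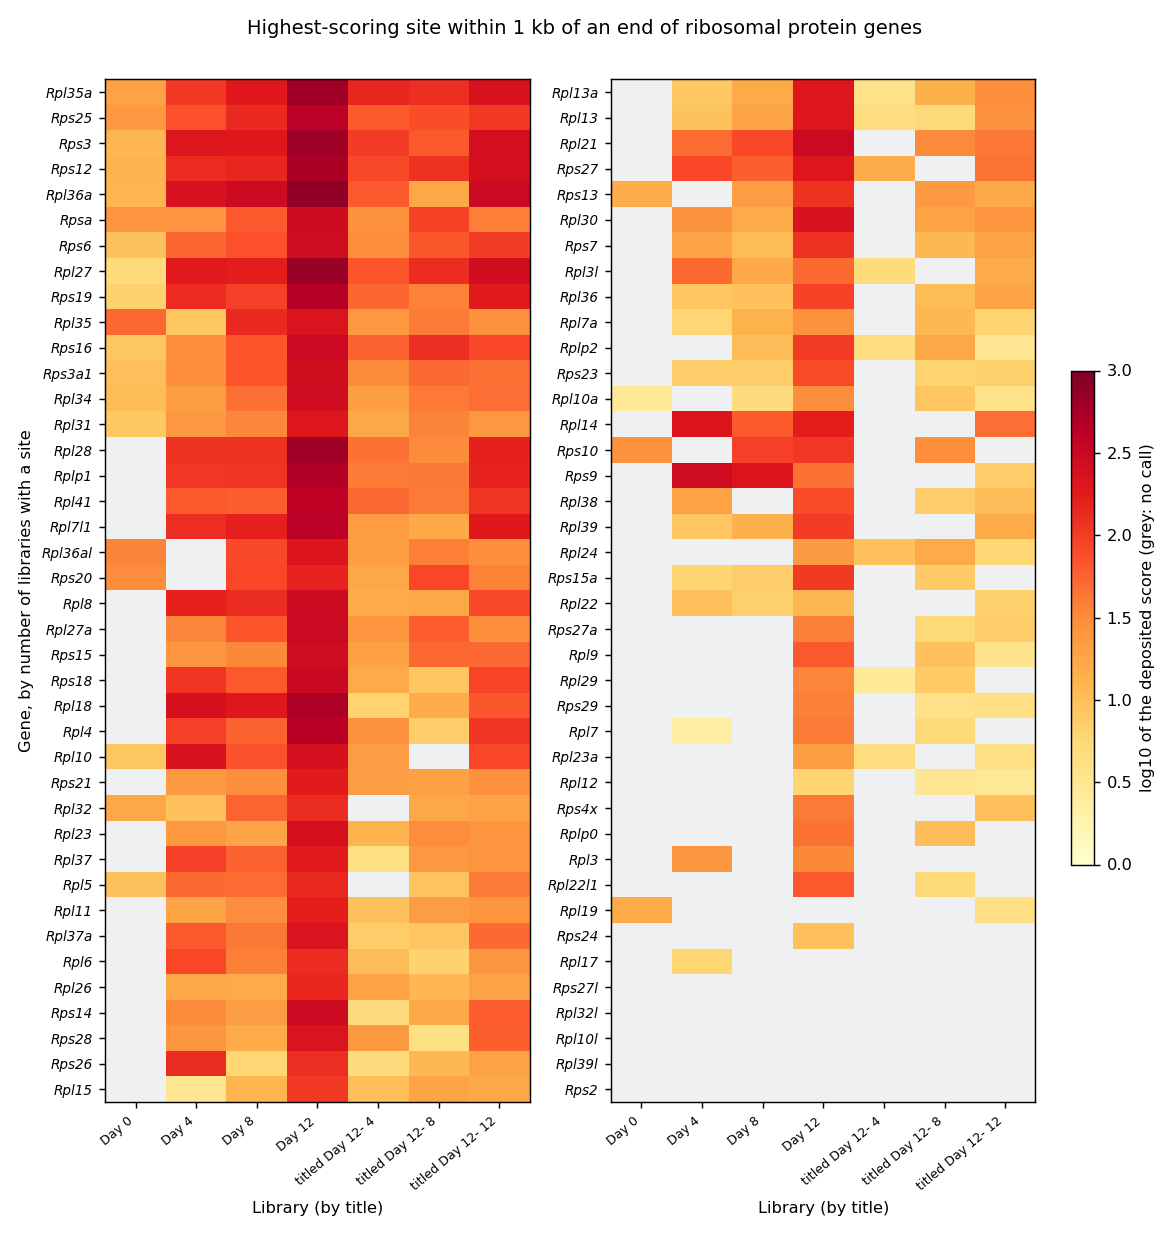
Deposited score of the highest-scoring site within 1 kb of an end of 80 of the 85 genes (rows, ordered by the number of libraries with a site and by rank) in the 7 libraries (columns), as log10 with grey for no call. Another 5 members, each with a site in some library, are not drawn. Colours compare genes within a column, since scores of different lists are not a common scale, and among the 80 drawn the day 0 column is grey for 57 and the day 12 column for 7.

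At day 0 the sites of Rpl35 and Rpl36al, at scores of 52.3 and 35.8, were among the highest of the members, and both lay within 53 bp of the annotated start.

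Several small-subunit genes were called in all 7 libraries. Rps3, which lines the mRNA entry channel (chromosome 7, 99477896 to 99483709), scored 12.0, 202, 189.96 and 641 at days 0, 4, 8 and 12. In the withdrawal libraries it scored 99.6, 65.0 and 259. Rps6, the substrate of the S6 kinases (chromosome 4, 86854099 to 86857367), scored 9.18, 53.2, 71.5 and 281 over the restoration days and 30.4, 66.9 and 99.1 after it. Rps12 (chromosome 10, 23785183 to 23787383) scored 12.7, 133, 146 and 540.2, then 82.6, 116 and 242. For each of these the day 0 score was the smallest number and the day 12 score the largest, on scales that differ between lists. Rpsa (chromosome 9, 120127766 to 120132369) scored 26.0, 26.6, 64.5 and 281 over the restoration days, and 28.6, 92.5 and 39.1 in the withdrawal libraries.

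Among large-subunit genes the highest day 12 scores were at Rpl36a and Rpl27. Rpl36a (chromosome X, 134585654 to 134588062) scored 12.0, 222, 293 and 768 at days 0, 4, 8 and 12. The withdrawal scores were 63.8, 17.1 and 297. Its day 12 summit lay 57 bp before the start and 1969 bp from an end of Btk, a tyrosine kinase gene of B and myeloid cells. Rpl27 (chromosome 11, 101442245 to 101445596) scored 4.96 at day 0 and 179, 173 and 700.3 at days 4, 8 and 12, and 67.6, 131 and 266 after withdrawal by title. Rpl28 (chromosome 7, 4792965 to 4794547) had no gene-end site at day 0 and scored 117, 116 and 626 at days 4, 8 and 12. Rpl18 and Rpl10 stood among the 3 highest member sites of day 4, at 234 and 222, with Rpl10 tied with Rpl36a, and Rps16, a small-subunit gene, among those of the library titled Day 12- 8, at 128. The best Rpl18 sites lay near the lower end of its gene record (chromosome 7, 45715467 to 45720835), whose annotated start is inside it, at 45718071. Near that start its day 4 site scored 81.1.

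The stalk of the large subunit, which recruits elongation factors, is made of Rplp0, Rplp1 and Rplp2, and these genes differed among themselves. Rplp1 was called in 6 libraries, from 39.5 in the library titled Day 12- 4 to 479 at day 12, and not at day 0. Rplp2 was called in 5 libraries with scores from 3.13 to 103. Rplp0 had a gene-end site only at day 12, at 47.1, and in the library titled Day 12- 8, at 10.3. Rpl5 and Rpl11, which with 5S RNA form the particle that binds Mdm2, scored 139 and 165 at day 12. Rpl5 also had a day 0 call, at 9.22, and Rpl11 had none.

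Genes mutated in human Diamond-Blackfan anaemia numbered 18, of which 7, 15, 16 and 18 had a gene-end site over days 0, 4, 8 and 12, and 12, 16 and 15 in the withdrawal libraries. The shares over days 0, 4, 8 and 12 were 38.9, 83.3, 88.9 and 100%, beside 23.5, 29.8, 32.7 and 56.2% of all genes. In the withdrawal libraries they were 66.7, 88.9 and 83.3%, beside 15.4, 43.5 and 51.4%. Rps19, the gene most often mutated in that disease (chromosome 7, 24884592 to 24889811), scored 6.55 at day 0 and 455 at day 12. Rpl35a (chromosome 16, 33056453 to 33060189) scored 18.6 and 633 at those times and 145, 123 and 216 in the withdrawal libraries. Its 7 summits lay within 19 bp, the narrowest spread of any member called in at least 3 libraries. Rps24 had a single call, at day 12 and a score of 9.44. Rps14, whose human copy lies in the region lost in the 5q- syndrome, had no day 0 call and scored 295 at day 12.

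By subunit the day 0 counts were 13 of 32 small-subunit genes (40.6%) and 12 of 53 large-subunit genes (22.6%), beside 23.5% of all genes. At day 12 they were 30 of 32 and 48 of 53, beside 56.2% of all genes, and in the library titled Day 12- 4 they were 20 of 32 and 31 of 53, beside 15.4%. The median day 12 score was 222 among small-subunit genes with a site and 170.2 among large-subunit genes. No test of the difference between subunits was made.

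The 5 genes with no gene-end site in any library were Rpl10l, Rpl32l, Rpl39l, Rps27l and Rps2, against 28.5% of all genes. Rpl10l, a testis-expressed retrocopy of Rpl10, and Rpl39l, the testis paralog of Rpl39, had no site within 10 kb either. The 8 paralogs whose symbols carry an l after the number gave 1, 2, 3 and 4 gene-end calls at days 0, 4, 8 and 12, and 3 in each withdrawal library. These shares of 12.5, 25, 37.5 and 50% stood beside 23.5, 29.8, 32.7 and 56.2% of all genes, and 37.5% in each withdrawal library beside 15.4, 43.5 and 51.4%. Rpl36al and Rpl7l1 were the highest of these, with day 12 scores of 208 and 411. Rpl3l, the striated muscle paralog of Rpl3, had its day 12 site, at 51.1, near its far end. Rps2 missed the window because its gene record (chromosome 17, 24718121 to 24721927) has its annotated start inside it, at 24720063. Near that start it was called at day 12, at 77.2, and in the libraries titled Day 12- 8 and Day 12- 12, at 7.42 and 5.65. Rps27l likewise has its annotated starts, at 66946086 and 66946413, inside its gene record (chromosome 9, 66944624 to 66949522). Near them it was called at day 0, at 6.26, at day 12, at 16.1, and in the library titled Day 12- 8, at 6.60.

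Annotated starts and strands were found for 65 of the 85 members in the RefSeq promoter table for GRCm38.p6. The other 20 were left out of positions relative to a start. Within 1 kb of a start, sites were called at 22, 42, 47 and 62 of 65 members over days 0, 4, 8 and 12, and at 38, 53 and 53 in the withdrawal libraries. Over all genes with a start the shares were 25.1, 27.9, 33.2 and 55.5% at days 0, 4, 8 and 12, and 15.7, 45.6 and 44.3% in the withdrawal libraries. The 3 members with no day 12 site at a start were Rpl10l, Rpl32l and Rpl39l, and these had none in any other library.

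Gene-end sites of the members lay mostly on the side of the start, as did those of all genes. Of members with a known strand and a site, the best site lay nearer the start than the far end in 21 of 21, 41 of 47, 46 of 51 and 54 of 59 cases over days 0, 4, 8 and 12. The side was set by the nearer end of the gene record, not by the annotated start. The day 0 count therefore includes Rpl19, whose site lay at -4110 bp from its nearest start. The counts of the 6 other libraries include Rpl18, with best sites between 45715204 and 45716317 and its annotated start at 45718071. The withdrawal libraries gave 38 of 40, 47 of 50 and 51 of 55. The shares among all genes with a site were 94.99, 80.2, 88.8 and 85.2% at days 0, 4, 8 and 12, and 88.9, 92.8 and 68.0% in the withdrawal libraries. The best site lay within 100 bp of a start at 52.4, 53.2, 62.7 and 57.6% of members over the restoration days and at 67.5, 48 and 60% in the withdrawal libraries. For all genes with a site these shares ran from 26.4% in the library titled Day 12- 12 to 43.1% in the library titled Day 12- 4.

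The side of the start on which summits fell varied between lists. In the library titled Day 12- 8, 37 of 50 best sites (74%) were downstream, with a median of 77.5 bp past the start. At day 0, 13 of 21 (61.9%) were downstream, with a median of 38 bp, and in the library titled Day 12- 12, 33 of 55 (60%), with a median of 10 bp. The downstream shares of days 4, 8 and 12 were 36.2, 52.9 and 49.2%, and that of the library titled Day 12- 4 was 47.5%. Among all genes with a site the downstream shares were 68.5, 46.8, 51.0 and 53.3% over the restoration days and 51.2, 64.0 and 64.2% in the withdrawal libraries. Their median positions in the lists of day 0 and the titles Day 12- 8 and Day 12- 12 were 96, 63 and 119 bp past the start.

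**Figure D3:**
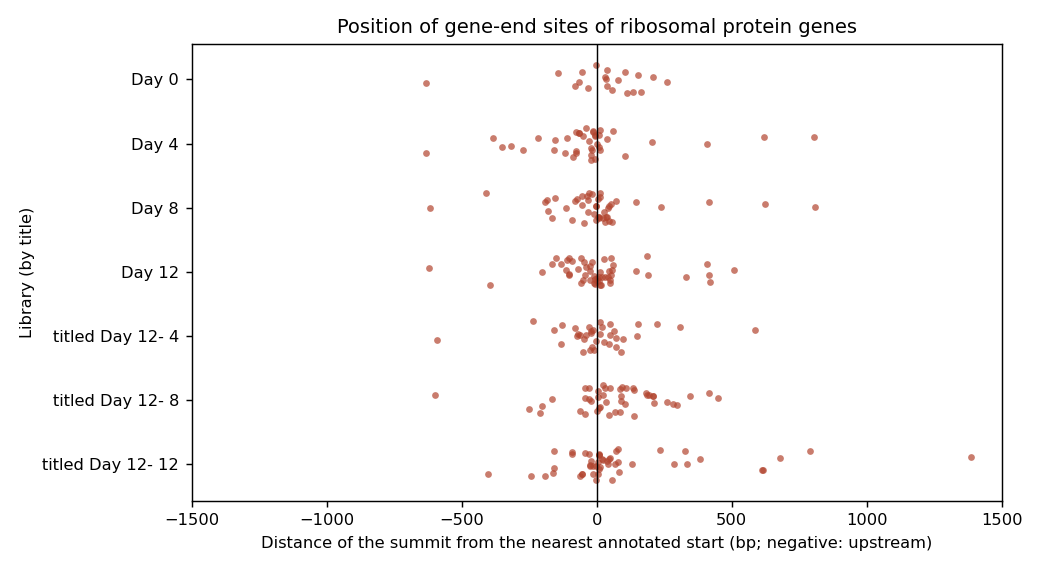
Distance in bp from the nearest annotated start to the best gene-end summit of each member with a known strand, by library, with 0 at the start and negative values upstream. Members beyond 1500 bp are not drawn, 1 to 7 per library and 4 in the library titled Day 12- 8, but are counted in the values that follow. The share of best sites within 100 bp of the start runs from 48% in the library titled Day 12- 8 to 67.5% in the library titled Day 12- 4. In the library titled Day 12- 8, 37 of 50 best sites lie downstream of the start.

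Summits of the withdrawal libraries were set beside those of day 12. Of the 51 members called in the library titled Day 12- 4, 47 (92.2%) had a summit within 100 bp of a day 12 summit, which is 60.3% of the 78 day 12 members. Among all genes called in both lists the share was 83.3%. For the library titled Day 12- 12 the count was 59, or 83.1% of its 71 members and 75.6% of the day 12 members. Of the 70 members called in both lists, 84.3% shared a summit, beside 74.8% of all genes called in both. For the library titled Day 12- 8 the count was 38, or 56.7% of its 67 members and 48.7% of the day 12 members. The share was 56.5% over all genes called in both. Within 500 bp all 67 members had a summit in both lists.

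The 25 day 0 members had a summit within 100 bp in the library titled Day 12- 8 in 19 cases (76%, or 28.4% of its 67 members). The day 8 list gave 20 cases (80%, or 31.25% of its 64 members). The day 12 list gave 15 (60%, or 19.2% of its 78 members). Among members called in both lists these were 82.6, 83.3 and 62.5%, beside 67.1, 70.4 and 45.9% of all genes called in both. Of 73 members called in at least 3 libraries, 24 had all their best summits within 100 bp, and the median spread was 154 bp. The spread is given for members only.

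Sites of ribosomal protein genes also ranked high within their lists. The median percentile of members' best gene-end sites was 67.6, 77.5, 84.9 and 95.8 over days 0, 4, 8 and 12. Among all genes with such a site the medians were 54.4, 66.2, 67.6 and 85.04. In the withdrawal libraries the members' medians were 74.9, 85.6 and 96.7 in title order, and those of all genes were 65.5, 66.9 and 79.3. Among the top 10% of scores of its list stood the site of 4 of 25, 22 of 62, 18 of 64 and 60 of 78 members at days 0, 4, 8 and 12. These were 16, 35.5, 28.1 and 76.9%, beside 12.9, 15.6, 18.7 and 37.3% of all genes with a site. In the withdrawal libraries the counts were 11 of 51, 28 of 67 and 56 of 71. These were 21.6, 41.8 and 78.9%, beside 17.1, 19.8 and 37.1%. The median day 12 score was 187 among members and 42.8 among all genes with a site, and at day 0 the medians were 12.7 and 10.2.

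**Figure D4:**
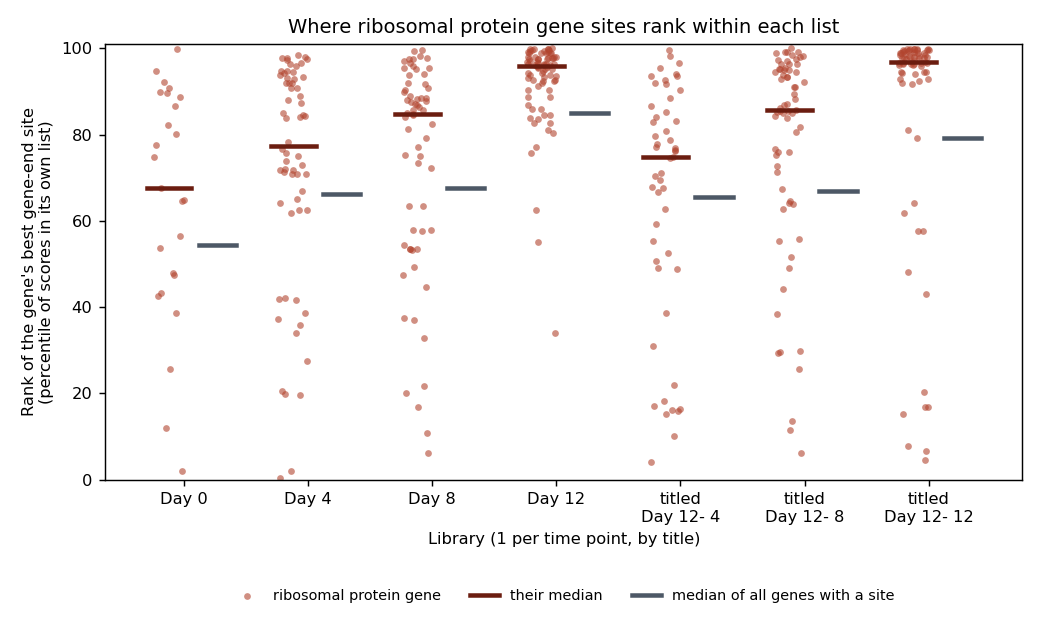
Percentile of each member's best gene-end site among all scores of its own list (points), with the members' median (dark red bar) and the median of all genes with a gene-end site (grey bar). The members' median lies above that of all genes in each library, by the least at day 12 (95.8 and 85.04), the library titled Day 12- 4 (74.9 and 65.5) and day 4 (77.5 and 66.2).

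Some of these sites could belong to a neighbour. Another protein-coding gene ended within 1 kb of an end of 31 of the 85 members. The best gene-end site lay closer to the other gene in 3 of 25 cases at day 0, 9 of 78 at day 12 and 6 of 51 in the library titled Day 12- 4. These neighbour counts are given for members only and do not show whether members differ from other genes. Rpl36al shares its promoter region with Mgat2, a glycosyltransferase gene, whose end lay 38 bp from the day 0 summit. At Rps25 the best site of 6 libraries lay 592 to 633 bp before the start and closer to Trappc4, while that of the library titled Day 12- 12 lay 25 bp before the start. Rps9 had its best sites of days 4 and 8, at 272 and 206, beyond its far end and 5.3 kb from Pirb, an inhibitory receptor gene of myeloid cells. No summit served as the best site of 2 members.

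In the wider window of the gene body plus 10 kb, 38, 78, 77 and 83 of 85 members had a site at days 0, 4, 8 and 12, beside 36.8, 69.8, 61.7 and 77.1% of all genes. The withdrawal libraries gave 59, 80 and 82 members, beside 34.8, 61.8 and 78.9%. Members are short, with a median of 3175 bp against 17169 bp for all genes, so this window is smaller for them. With a score of at least 10 the counts were 24, 69, 71 and 82 over the restoration days, beside 20, 57.8, 52.1 and 65.6% of all genes, and 46, 59 and 72 in the withdrawal libraries, beside 21.4, 32.9 and 52.6%. With 8043 sites a list they were 38, 37, 46 and 68, beside 36.8, 25.5, 29.2 and 35.2%, and 53, 64 and 54, beside 31.0, 37.8 and 31.0%. The largest number of sites around a member was 20, in the library titled Day 12- 12.

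Of 78 mitochondrial ribosomal protein genes, whose products form the separate ribosome of mitochondria, 15, 43, 49 and 74 had a gene-end site at days 0, 4, 8 and 12, and 31, 57 and 58 in the withdrawal libraries. These were 19.2, 55.1, 62.8 and 94.9%, then 39.7, 73.1 and 74.4%, beside 23.5, 29.8, 32.7 and 56.2%, then 15.4, 43.5 and 51.4% of all genes. Of 17 genes for elongation factors and other mRNAs with a terminal pyrimidine tract, such as Eef1a1 and Tpt1, 7 had such a site at day 0 (41.2%, beside 23.5% of all genes), 15 at day 12 (88.2%, beside 56.2%) and 7 in the library titled Day 12- 4 (41.2%, beside 15.4%). Of 17 ribosome biogenesis genes, such as Fbl and Ncl, 3, 15 and 8 had a site in the same 3 libraries, or 17.6, 88.2 and 47.1%. The median day 12 score was 67.0 for mitochondrial ribosomal protein genes, 82.0 for the tract genes and 45.1 for biogenesis genes, below the 187 of the cytosolic set. No test of these differences was made.

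Pseudogenes of ribosomal proteins are copies of the mRNA without the promoter. Of 319 annotated copies, 1, 8, 2 and 35 had a site within 1 kb of an end at days 0, 4, 8 and 12, and 1, 1 and 75 in the withdrawal libraries. As shares these were 0.313, 2.51, 0.627 and 10.97%, beside 1.2, 4.91, 2.52 and 10.1% of 9944 annotated pseudogenes of any kind. The withdrawal shares were 0.313, 0.313 and 23.5%, beside 0.805, 2.79 and 18.2%. Reads from exons can be shared between a gene and its copies, and how the authors treated such reads was not given in the sources used here.

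Motifs were searched as exact letters on both strands of the 300-base promoter windows, from 250 bases before to 50 after each start, with 77 windows for 65 members and 21263 for all genes. The core GGAA, part of each ETS motif below, was present in 100% of member windows and 95.7% of all windows. The GABP-type CCGGAAG was present in 27 of 77 (35.1%) and in 11.6% of all windows, and CCGGAAGT in 12 of 77 (15.6%) and 5.15%. The PU.1-type GAGGAA was present in 24 of 77 (31.2%) and 27.4%, and GAGGAAGT in 3 of 77 (3.90%) and 3.13%. The YY1-type AANATGGC was present in 17 of 77 (22.1%) and 6.37%, the SP-type GGGCGG in 46 of 77 (59.7%) and 46.2%, and TATAAA in 8 of 77 (10.4%) and 12.6%.

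Overlapping windows of 1 gene share bases and summits, so matches near summits were counted by gene, as genes with a match within 50 bases of the best summit of any of their windows. GGAA lay that close in 11 of 12 members with a summit in a window at day 0 and 40 of 44 at day 12, beside 63.4 and 82.1% of all such genes. GAGGAA lay that close in 3 of 12 members at day 0 (all genes 14.5%), 10 of 44 at day 12 (16.7%), 8 of 26 in the library titled Day 12- 4 (23.7%) and 6 of 24 in the library titled Day 12- 8 (13.0%). For CCGGAAG the counts in the same 4 libraries were 2 of 12 (9.24%), 12 of 44 (16%), 4 of 26 (19.2%) and 2 of 24 (13.3%). For the YY1-type AANATGGC they were 1 of 12 (2.66%), 4 of 44 (3.72%), 5 of 26 (4.00%) and 4 of 24 (4.01%). At days 4 and 8 AANATGGC lay that close in 6 of 32 members (4.20%) and 6 of 38 (4.13%), and in the library titled Day 12- 12 in 3 of 36 (3.55%). In these libraries, in the same order, GAGGAA lay that close in 9 of 32 (27.8%), 8 of 38 (22.3%) and 9 of 36 (19.2%). CCGGAAG did so in 11 of 32 (17.3%), 9 of 38 (18.8%) and 11 of 36 (16.2%). The GGAA counts there were 31 of 32 (93.4%), 35 of 38 (89.4%) and 34 of 36 (84.1%). For the libraries titled Day 12- 4 and Day 12- 8 they were 24 of 26 (89.6%) and 20 of 24 (70.4%). A match is a description of letters and does not show which factor was bound.

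Just inside the 1 kb limit at day 0 stood Rps25, 633 bp from its summit, and just outside it Rpl7, at 1386 bp with a score of 12.9.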

How the data were processed

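PU.1 ChIP-seq summit lists of 7 of 8 labelled samples were analysed. The sample labelled 12 days off Dox, whose title names no time point, was not analysed here. Peaks came from MACS2 on build mm10, per the submitters' processing notes. The deposited score was taken as −log10 of the peak's q-value, since the lowest scores lie at the 1.30 that a q limit of 0.05 gives. Neither aligner, control library, depth nor pooling is named in the labels, and each is not given in the sources used here.

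Summits were converted to 1-based positions. Genes came from RefSeq tables for GRCm38.p6 (21887 placed protein-coding genes, 13 unplaced left out), and starts from its promoter table. Calls counted summits within 1 kb of either gene end, or in the body plus 10 kb. Lists were also cut to 8043 sites, with ties at the limit broken by position. A percentile is the share of a list scoring lower. The calls were tested on simulated summits. Python 3.11.15, numpy 2.4.6, pandas 2.3.3, scipy 1.17.1 and matplotlib 3.10.9 were used.

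The members and lists were chosen with earlier results of these data known. Named genes were up to 8 called in most libraries (ties by summed percentiles), the 3 highest-scoring of each list, those called at day 0 or in withdrawal libraries and not on days 4, 8 and 12, those nearest the 1 kb limit at day 0, those with no site, and up to 4 of the Diamond-Blackfan list. Rpl28, the stalk genes, Rpl5, Rpl11, Rps14, Rpl36al, Rpl7l1, Rpl3l and the neighbours' cases were chosen after their values were seen. Values of some members, counted in all totals, are not reported here by name.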

Additional observations from a re-analysis of the deposited data

How the results depend on the processing

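No paired analysis was possible because every time point has 1 library and the labels carry no replicate numbers. Of 109 alternative values for 22 results, 87 stayed within 1.5 times the reported count. Counts of members with a gene-end site did so within 500 bp or 2 kb of the ends, with a score of at least 10, for the closest gene end only, for annotated starts only and without the paralogs. With a score of at least 20 they were 8 at day 0 and, for the withdrawal titles Day 12- 4, Day 12- 8 and Day 12- 12, 25, 29 and 46. With 8043 sites per list they were 25 at day 4, 39 at day 8 and 46 in the library titled Day 12- 12. For the body plus 10 kb, the body alone gave 22, 29 and 40 members at days 0, 4 and 8 and 32 in the library titled Day 12- 4, a score of at least 10 gave 24 at day 0, and 8043 sites gave 37, 46 and 54 at days 4 and 8 and in the library titled Day 12- 12. Each setting counts fewer sites or a smaller window, and these values are lower by construction. Within 50 bp, 13 members shared a site between day 8 and day 0, 9 between day 12 and day 0, 12 between the library titled Day 12- 8 and day 0, and 22 between that library and day 12. Within 500 bp, 24 were shared between day 12 and day 0 and 67 between the library titled Day 12- 8 and day 12. With annotated starts only, an alternative chosen after seeing the data, 0 of 65 members were called at day 0 or in withdrawal libraries and in none of days 4, 8 and 12, since the gene record of Rpl19 starts before its annotated start. Grouping by treatment label, or leaving out the library titled Day 12- 12, left that count at 1. Depth was unknown, which limits every statement on missing calls.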
